A study of Homo sapiens with 6 samples.

Results

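AU-rich element binding proteins attach to U-rich and AU-rich stretches in the 3′ untranslated regions of short-lived mRNAs and set how long those mRNAs last. The 10 genes described here are ZFP36, ZFP36L1, ZFP36L2, ELAVL1, HNRNPD, KHSRP, TIA1, TIAL1, RC3H1 and ZC3H12A. They were named by symbol for what they are known to bind, with no threshold on a measured value and with earlier results of these data known, and matched to Ensembl identifiers with GENCODE 29. All 10 were among the 56982 genes listed in both tables, and all 10 passed the filter on low values that left 15001 genes for testing.

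The cells were U2OS, a human osteosarcoma line, grown without further treatment in serum-containing medium and harvested in log phase at 65 to 75% confluency. Of the 6 libraries of oligo(dT)-selected RNA, 3 were of wild-type (WT) cells and 3 of G3C2, labelled ZFP36L1 deficient after CRISPR Cas9 targeting of that gene. G3C2 is the only deficient line in the labels, so the genotype and the line cannot be told apart. Values were in FPKM (fragments per kilobase of transcript, scaled to sequencing depth), in a first table for replicate 1 of each genotype and a second table for replicates labelled b and c. The study grew the cells on 3 occasions, and the labels do not tie a library to an occasion, so p-values measure only the spread between these libraries.

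Reads summed over genes could be read back from the second table, at 22610000 to 28980000 per library. The depth that scaled FPKM there was not the same. It was 29670000 (WT b), 26520000 (G3C2 b), 25410000 (WT c) and 22560000 (G3C2 c). In G3C2 c the summed reads (25840000) were above that depth, and in WT c (22610000) they were below it. Reads behind the 10 genes there ran from 261 to 17544, which gives exact Poisson 95% intervals with half-widths of 1.48% to 12.3% (counting error only). For the first table no depth was read back. RUNX2, COL1A1, SPARC, SPP1 and VIM, of 11 markers of osteoblasts and osteosarcoma, had at least 1 FPKM in every library. SP7, ALPL, COL1A2, BGLAP, IBSP and TWIST1 stayed under 1 FPKM in every library, with IBSP listed at 0. All 8 blood cell markers were under 1 FPKM throughout. Of 8 epithelial markers, KRT8, KRT18 and EPCAM reached at least 1 FPKM in every library. KRT19 and KRT5 stayed under 1 FPKM in every library, and CDH1, KRT14 and CLDN4 were under 1 FPKM in some. Of 5 endothelial markers, 4 were under 1 FPKM throughout, and VWF had at most 1.87 FPKM. In bulk RNA, fewer cells of a kind and less RNA per cell cannot be told apart.

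The 3 members of the ZFP36 family are CCCH zinc finger proteins that bind AU-rich elements and recruit the CCR4-NOT complex, which removes the poly(A) tail and starts decay. Roquin-1 (RC3H1) and Regnase-1 (ZC3H12A) also promote decay, but recognise stem-loops. HNRNPD (AUF1) and KHSRP mostly favour decay, ELAVL1 (HuR) mostly stabilises, and TIA1 and TIAL1 mostly hold back translation. Several of these proteins also act on the mRNAs of their own family.

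The tandem zinc finger is what the ZFP36 family shares, and the stretch of coding sequence behind it is shown because it is the RNA-binding part of the 3 paralogs compared below. It was found by searching the longest coding sequence of each gene for a cysteine codon (TGC or TGT), 8 codons, a cysteine codon, 5 codons, a cysteine codon, 3 codons and a histidine codon (CAC or CAT). Each sequence runs from the first cysteine codon of the first finger to the histidine codon of the second, with the codons of the 8 zinc-binding residues in capitals (GENCODE 29, GRCh38).
ZFP36 (chr19:39408043-39408216, plus strand, codons 115 to 172): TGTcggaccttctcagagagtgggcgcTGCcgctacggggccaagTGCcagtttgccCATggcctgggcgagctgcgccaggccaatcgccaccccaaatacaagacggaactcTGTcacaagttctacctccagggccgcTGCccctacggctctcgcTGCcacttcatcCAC
ZFP36L1 (chr14:68790019-68790192, minus strand, codons 120 to 177): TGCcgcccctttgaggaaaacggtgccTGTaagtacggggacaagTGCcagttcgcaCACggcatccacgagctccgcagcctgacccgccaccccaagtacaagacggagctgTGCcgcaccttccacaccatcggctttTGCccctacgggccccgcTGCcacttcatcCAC
ZFP36L2 (chr2:43225156-43225329, minus strand, codons 159 to 216): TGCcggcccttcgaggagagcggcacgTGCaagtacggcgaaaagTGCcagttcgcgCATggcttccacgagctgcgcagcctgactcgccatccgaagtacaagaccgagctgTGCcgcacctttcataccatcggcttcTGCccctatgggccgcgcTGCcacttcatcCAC

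All 3 stretches were 174 bases long with 18 codons between the fingers, and each lay within 1 exon. ZFP36L1 and ZFP36L2 were identical at 151 of these bases (86.8%). ZFP36 was identical to either of them at 121 (69.5%). RC3H1 held 1 finger of this spacing, starting at codon 419, and the other 6 genes held none. Over 19496 coding sequences, 0.226% held at least 1 such finger and 9 genes held 2.

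All 3 paralogs also carried the core AU-rich heptamer TATTTAT (searched on the transcript strand) in their own 3′ untranslated regions. In the longest annotated region of each gene, ZFP36 had 3 matches in 713 bases, ZFP36L1 3 in 2828 and ZFP36L2 3 in 1917. ELAVL1 had 5 matches in 4904 bases, of which 2 overlapped each other, RC3H1 had 2, TIA1 and TIAL1 had 1 each, and HNRNPD, KHSRP and ZC3H12A had none. Of 19133 genes with such a region, 31.1% held the heptamer, a share that depends on length. Among genes with a region 0.8 to 1.2 times as long, 1.33% held at least 3 for ZFP36, 4.49% for ZFP36L2 and 8.69% for ZFP36L1, and 3.99% held at least 5 for ELAVL1. A match is a description of the letters and not a bound site. The first match of each of the 4 genes with at least 3 is shown with 9 bases on either side and the heptamer in capitals.
ZFP36 (chr19:39409183-39409207, plus strand): tgggcccttTATTTATgacgacttt
ZFP36L1 (chr14:68788338-68788362, minus strand): atcaaaacgTATTTATtgccaaact
ZFP36L2 (chr2:43223450-43223474, minus strand): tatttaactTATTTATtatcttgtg
ELAVL1 (chr19:7961864-7961888, minus strand): tgatggctgTATTTATctgtttatt

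The most abundant of the 10 transcripts were HNRNPD, KHSRP and ZFP36L1, which took the first 3 places by FPKM in all 6 libraries, in varying order. FPKM is per length, but which lengths were used is not stated. GENCODE exon lengths gave whole reads for 97.3% to 97.4% of values in the second table, against 33.5% and 34.7% in the first. The order of genes in the first table thus rests on lengths or a quantification that are not known. In WT replicate 1, HNRNPD was first with 393.2 FPKM, above 98.6% of the tested genes, and ZFP36 was last with 7.03 FPKM, above 37.0% of them. ZFP36L1 took place 3 in WT replicates 1 and b and place 1 in WT replicate c. RC3H1, ZC3H12A and ZFP36 filled the last 3 places in replicate 1 of both genotypes, while RC3H1 and ZC3H12A filled the last 2 in all 4 libraries of the second table. The FPKM scales of the tables were not a common multiple of each other. Mean FPKM in the first table over that in the second was 0.697 for ZFP36 and 5.79 for TIAL1, against a median of 2.33 over all tested genes, so no level was compared across tables, and the order of the genes depends on the table.

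**Figure D1:**
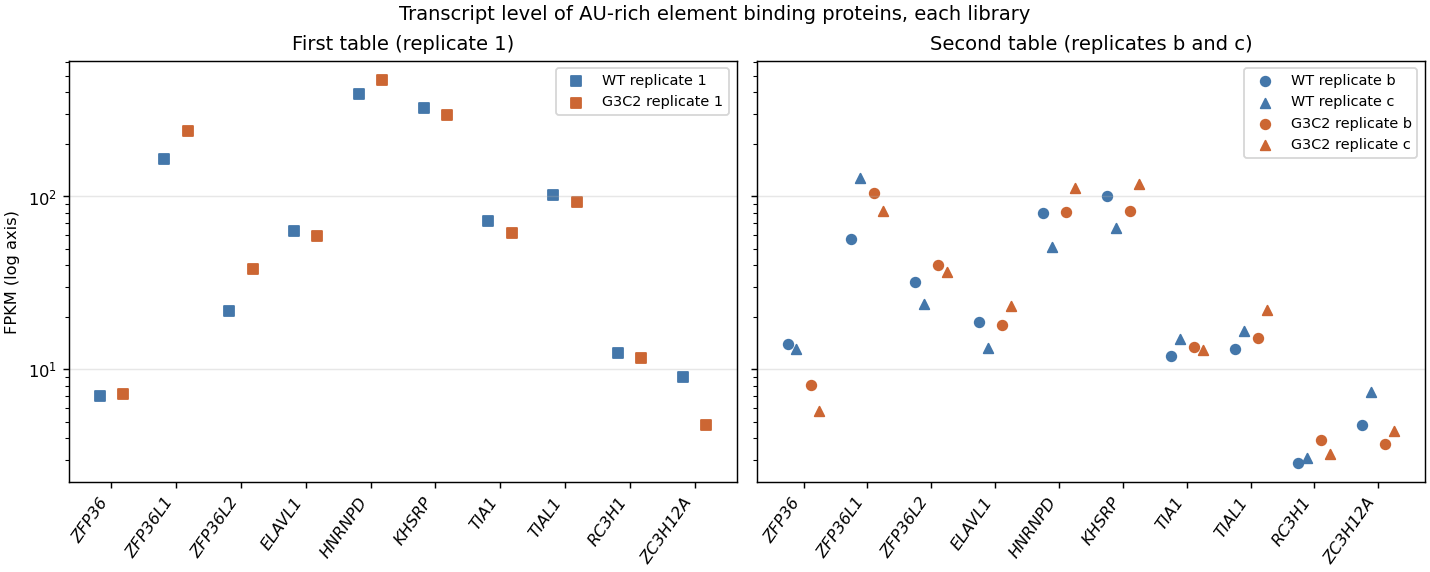
FPKM (log axis) of each of the 10 genes in each library, the first table at left and the second at right. Squares, circles and triangles are replicates 1, b and c, WT in blue and G3C2 in orange. HNRNPD, KHSRP and ZFP36L1 are the highest in every library, and the WT and G3C2 points of the second table overlap for 5 of the 10 genes.

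None of the 10 transcripts differed between G3C2 and WT at an adjusted p under 0.05. Over all tested genes that threshold was passed by 0.0467% (7 of 15001, and 1 with the replicate label as a block), in a limma fit of log2(FPKM + 1) with a term for the table and Benjamini-Hochberg adjustment. At an unadjusted limma p under 0.05, 1 of the 10 was higher in G3C2 (ZFP36L2) and 2 were lower (ZFP36 and ZC3H12A), against 6.19% higher and 7.43% lower of all tested genes. ZFP36 no longer passed that unadjusted threshold with the replicate label as a block (unadjusted p = 0.0610, limma adjusted p = 0.442). Limma-voom, run on second-table reads, called none of the 10. In all 3 replicate pairs, 2 of the 10 were higher (ZFP36L2 and HNRNPD) and 1 was lower (ZC3H12A), against 17.8% and 18.6% of all tested genes. The median log2 difference of the 10 was 0.14, beside 0.01 over all tested genes. By replicate 1, b and c it was -0.10, 0.09 and 0.22, beside -0.08, -0.01 and 0.07 over all tested genes. Differences below are given as G3C2 minus WT on the log2(FPKM + 1) scale, which understates those of low genes.

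**Figure D2:**
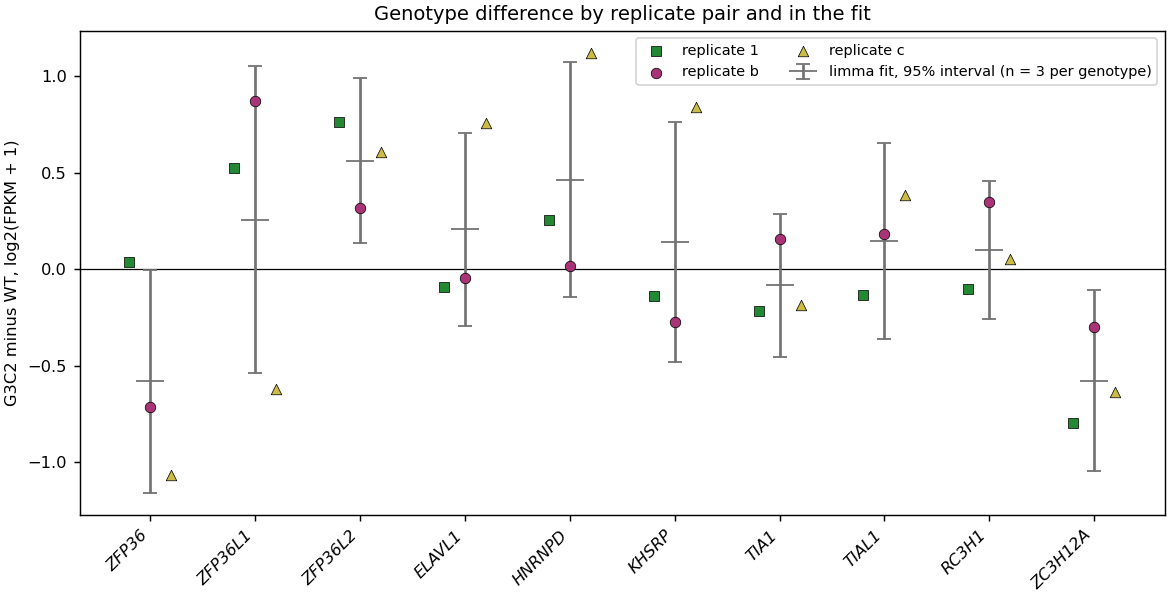
G3C2 minus WT in log2(FPKM + 1) for each gene. Coloured points are the differences within replicates 1, b and c, and grey bars are the limma estimate with its 95% interval (n = 3 per genotype). The intervals of ZFP36L2, ZFP36 and ZC3H12A lie on one side of 0 before adjustment, and the points of ZFP36L1 lie on both sides, from -0.62 to 0.87.

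The transcript of ZFP36L1 (ENSG00000185650, chromosome 14, 68787660 to 68796253), the gene targeted in G3C2, was detected in every library. FPKM was 165.2 in WT and 238.1 in G3C2 for replicate 1. The WT libraries of the second table had 57.1 (b) and 127.5 (c), and the G3C2 libraries 105.1 (b) and 82.4 (c). Both G3C2 values lay between the WT values there, and at least 9595 recovered reads stood behind each G3C2 value. The difference was 0.26 (SE 0.33, 95% interval -0.54 to 1.05, n = 3 per genotype, limma adjusted p = 0.752). Leaving out replicate c gave 0.70 with a limma adjusted p of 0.0237, with 1 residual degree of freedom. In that setting 448 of 15001 genes were called higher and 457 lower. Leaving out replicate b gave -0.050 and leaving out WT replicate b -0.033. An edit can abolish a protein without lowering its mRNA, and the labels do not say where the gene was cut, so these values do not check the genotype.

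ZFP36L2 (ENSG00000152518, chromosome 2, 43222402 to 43226609) is the paralog closest to ZFP36L1 in the finger sequences above. FPKM was 21.9 in WT and 37.8 in G3C2 for replicate 1. The WT libraries of the second table had 32.0 (b) and 23.8 (c), and the G3C2 libraries 40.1 (b) and 36.7 (c). Every G3C2 value was above the WT values of its table, at 173%, 125% and 155% of WT in replicates 1, b and c. Of all tested genes, 17.8% were higher in all 3 pairs, and 22.1% had both second-table G3C2 values above both WT values. The difference was 0.56 (SE 0.18, 95% interval 0.13 to 0.99, unadjusted p = 0.0181, limma adjusted p = 0.261). By limma-voom on the reads of replicates b and c it was 0.29 (limma adjusted p = 0.728).

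ZFP36 (ENSG00000128016, chromosome 19, 39406813 to 39409412), tristetraprolin, is the founding member and an immediate-early gene that serum and stress induce. FPKM was 7.03 in WT and 7.24 in G3C2 for replicate 1. The WT libraries of the second table had 13.97 (b) and 13.1 (c), from 833 and 671 recovered reads, and the G3C2 libraries 8.11 (b) and 5.76 (c), from 432 and 261. G3C2 was at 103% of WT in replicate 1, and at 58.0% and 43.8% in replicates b and c, where the groups did not overlap. Of all tested genes, 17.9% likewise had both G3C2 values below both WT values in the second table. The difference was -0.58 (SE 0.24, 95% interval -1.16 to -0.0026, unadjusted p = 0.0493, limma adjusted p = 0.365), and with the second table alone it was -0.89 (limma adjusted p = 0.636). It was -0.37 without G3C2 replicate c and -0.34 without replicate c of both genotypes. By limma-voom on the reads of replicates b and c, another scale, it was -1.18.

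The make-up of the family can be compared within a table without regard to the scaling of a library, since the 3 genes are read from the same library. ZFP36L1 made up 85.1% of the 3 genes' summed FPKM in WT replicate 1 and 84.1% in G3C2 replicate 1. Among the libraries with labels b and c its share was 55.4% and 77.6% in WT replicates b and c, and 68.5% and 66.0% in G3C2. ZFP36 had a lower share in G3C2 than in WT of the same replicate in all 3 pairs, from 3.62% to 2.56%, from 13.5% to 5.29% and from 7.99% to 4.61%. In replicate 1 its own FPKM was not lower (7.03 in WT and 7.24 in G3C2), while ZFP36L1 and ZFP36L2 were higher in G3C2. ZFP36L2 had 11.3% in WT and 13.4% in G3C2 of replicate 1, and its shares in the second table were 31.1% (WT b), 14.5% (WT c), 26.2% (G3C2 b) and 29.4% (G3C2 c). Among the 3 genes' shares in the second table, only those of ZFP36 did not overlap between genotypes. By FPKM, ZFP36L2 did not overlap there either. Over all tested genes, both G3C2 values were below both WT values for 17.9% and above them for 22.1%. The shares were not tested.

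**Figure D3:**
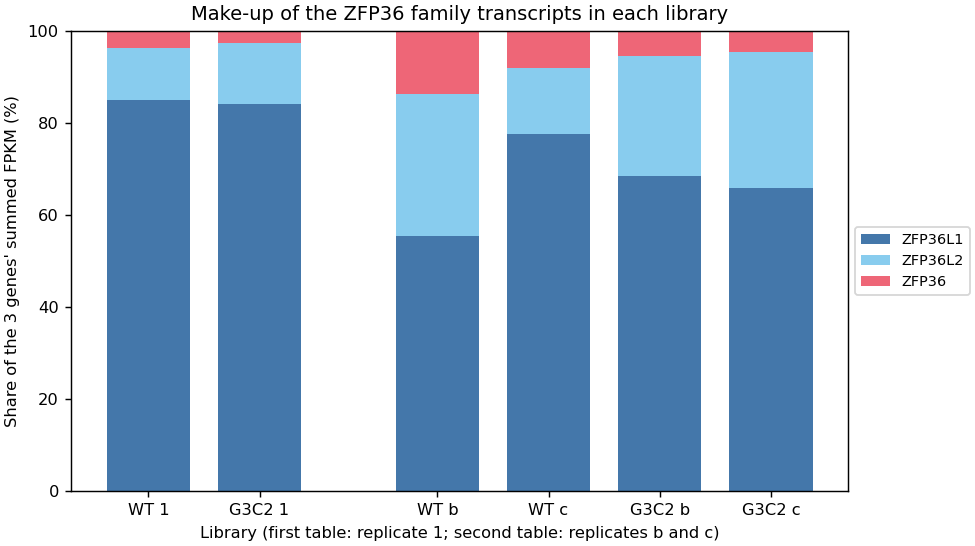
Share of ZFP36L1, ZFP36L2 and ZFP36 in their summed FPKM (%), one bar per library, the first table at left and the second at right. ZFP36L1 is the largest part in every library, and the ZFP36 part is at most 5.29% in G3C2 and reaches 13.5% in WT replicate b.

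ZC3H12A (ENSG00000163874, chromosome 1, 37474552 to 37484379), the endonuclease Regnase-1, had 8.99 FPKM in WT and 4.75 in G3C2 for replicate 1. The WT libraries of the second table had 4.78 (b) and 7.43 (c) FPKM, and the G3C2 libraries 3.70 (b) and 4.42 (c). G3C2 was lower throughout, at 52.9%, 77.3% and 59.5% of WT in replicates 1, b and c. The groups did not overlap in the second table, where both G3C2 values were below both WT values for 17.9% of all tested genes. The difference was -0.58 (SE 0.19, 95% interval -1.05 to -0.11, unadjusted p = 0.0234, limma adjusted p = 0.283). RC3H1 (ENSG00000135870, chromosome 1, 173931214 to 174022297), which encodes Roquin-1, had 12.5 FPKM in WT and 11.6 in G3C2 for replicate 1. The WT libraries of the second table had 2.87 (b) and 3.08 (c) FPKM, and the G3C2 libraries 3.93 (b) and 3.23 (c). Its difference was 0.10 (SE 0.15, 95% interval -0.26 to 0.46, limma adjusted p = 0.792), with replicate 1 of opposite sign to b and c.

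In the second table, where each genotype has 2 libraries, both G3C2 values were above both WT values for 3 of the 10 genes (ZFP36L2, HNRNPD and RC3H1). Both were below for 2 (ZFP36 and ZC3H12A). Over all tested genes these arrangements held for 22.1% and 17.9%.

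ELAVL1, HNRNPD and KHSRP, which act in opposite directions on mRNA half-life, had differences between -0.28 and 0.26 in replicates 1 and b and between 0.76 and 1.12 in replicate c. Summed FPKM in replicate c was 319282 in G3C2 and 235190 in WT. The part of library scaling in the replicate c differences was not tested. With the second table alone the estimates were 0.36 (ELAVL1), 0.57 (HNRNPD) and 0.28 (KHSRP). By limma-voom on its reads they were 0.19, 0.39 and 0.10. HNRNPD (ENSG00000138668, chromosome 4, 82352498 to 82374503) had 393.2 FPKM in WT 1 and 469.9 in G3C2 1, 80.1 in WT b and 81.1 in G3C2 b, and 50.8 in WT c and 111.4 in G3C2 c. Its differences by pair were 0.26, 0.02 and 1.12, and the estimate was 0.46 (SE 0.25, 95% interval -0.15 to 1.07, limma adjusted p = 0.474). It was 0.25 without WT replicate c, 0.30 without G3C2 replicate c, 0.14 without both, and 0.23 with quantile normalization. KHSRP (ENSG00000088247, chromosome 19, 6413348 to 6424794) had 326.6 FPKM in WT 1 and 296.3 in G3C2 1, 100.6 in WT b and 82.9 in G3C2 b, and 65.9 in WT c and 118.6 in G3C2 c. The gene was thus lower in G3C2 in replicates 1 and b and higher in c. Its estimate was 0.14 (SE 0.26, 95% interval -0.48 to 0.76, limma adjusted p = 0.833), and it was -0.080 with quantile normalization. ELAVL1 (ENSG00000066044, chromosome 19, 7958579 to 8005659) had 63.0 FPKM in WT 1 and 59.0 in G3C2 1, 18.7 in WT b and 18.1 in G3C2 b, and 13.3 in WT c and 23.2 in G3C2 c. WT c was the lowest of the second table and G3C2 c the highest. Its estimate was 0.21 (SE 0.21, 95% interval -0.29 to 0.71, limma adjusted p = 0.688), and -0.070 without replicate c.

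TIA1 and TIAL1 encode related proteins of stress granules, where stalled mRNAs gather. TIA1 (ENSG00000116001, chromosome 2, 70209444 to 70248660) had 72.1 FPKM in WT 1 and 61.8 in G3C2 1, 11.95 in WT b and 13.4 in G3C2 b, and 14.9 in WT c and 12.96 in G3C2 c. TIAL1 (ENSG00000151923, chromosome 10, 119571802 to 119597029) had 101.7 and 92.5, 13.2 and 15.1, and 16.7 and 22.1 FPKM in the same order. TIA1 overlapped between the genotypes in the second table, and so did TIAL1. The estimates were -0.08 (SE 0.15, 95% interval -0.45 to 0.29) for TIA1 and 0.14 (SE 0.21, 95% interval -0.36 to 0.65) for TIAL1, with limma adjusted p of 0.834 and 0.785.

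Libraries of 1 genotype also differed from each other, by different amounts for different genes. From replicate b to c, ZFP36L1 was higher by 1.15 on the log2 scale in WT and lower by a difference of -0.35 in G3C2. HNRNPD, KHSRP and ELAVL1 went the other way, with -0.65, -0.60 and -0.46 in WT and 0.45, 0.51 and 0.34 in G3C2. For ZFP36 the step was -0.08 in WT and -0.43 in G3C2, smaller than its genotype differences of -0.72 and -1.07 in replicates b and c. The sign was opposite in the genotypes for 6 of the 10 genes, against 59.8% of all tested genes. The arrangement of HNRNPD, KHSRP and ELAVL1, lower in WT c and higher in G3C2 c, held for 36% of all tested genes. Of the summed FPKM of genes in both tables, those of the mitochondrial genome took 13.96% in WT replicate c, 8.83% in WT replicate b, and 7.47% and 6.73% in G3C2 replicates b and c. Their part in these differences was not tested.

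**Figure D4:**
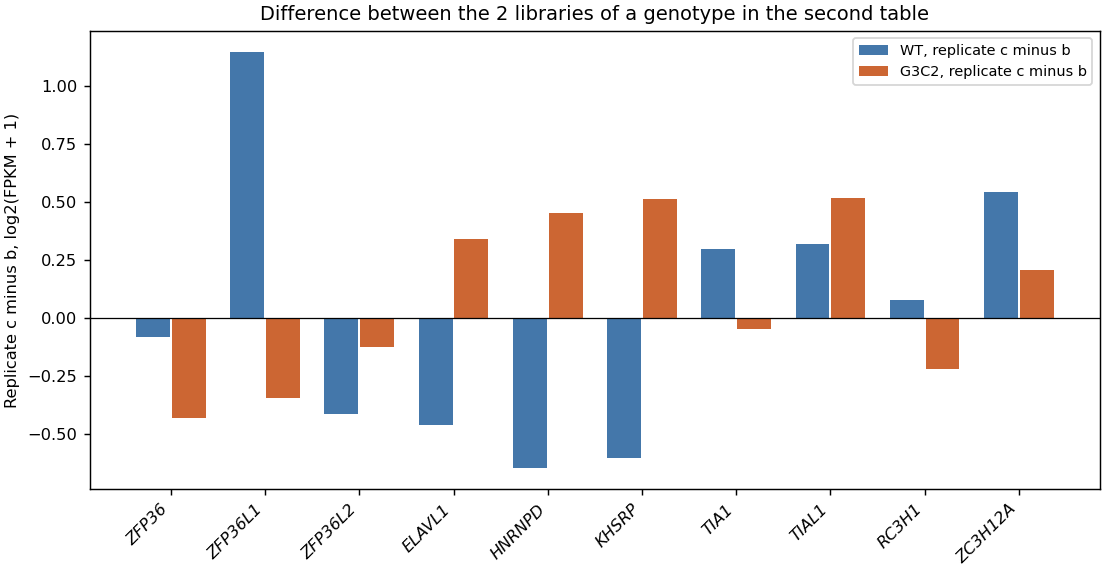
Replicate c minus replicate b in log2(FPKM + 1) within WT (blue) and within G3C2 (orange), second table. ZFP36L1 stands at 1.15 in WT and -0.35 in G3C2, and ELAVL1, HNRNPD and KHSRP are below 0 in WT and above 0 in G3C2.

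The transcripts whose pattern was most like that of ZFP36L1 were LAMA1, CDKN1A, CYTL1, SYNPO and COL4A1. Likeness was the root mean square difference over the 6 libraries, after log2(FPKM + 1) was centred within each table, among 8769 protein-coding genes with a mean of at least 5 FPKM. It was 0.06 for LAMA1, a laminin chain, 0.11 for CDKN1A, which encodes the cell cycle inhibitor p21, and 0.17 for COL4A1, a chain of basement membrane collagen, against a median of 0.47. CDKN1A had 65.7 FPKM in WT b and 133.9 in WT c, and 102.4 in G3C2 b and 75.5 in G3C2 c. Among the other 9 genes the closest was TIA1 at 0.34 and the farthest HNRNPD at 0.60.

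The differences of neighbouring genes were set beside those of each gene. Neighbours were tested protein-coding genes starting within 2 Mb, and their median difference was taken relative to that of all 12152 tested protein-coding genes. Around ZFP36L1, 26 neighbours had medians of -0.21, -0.19 and -0.24 in replicates 1, b and c, and 13 of them were lower in G3C2 in all 3 pairs (18.6% of all tested genes were). ZFP36L1 itself stood at 0.59, 0.88 and -0.73 on the same scale, so it was above its neighbours in replicates 1 and b and below them in c. Around ZFP36L2, 14 neighbours had 0.14, 0.09 and 0.01, against 0.83, 0.33 and 0.50 for the gene. Around ZFP36, 69 neighbours stayed between -0.04 and 0.01, and around ZC3H12A, 36 neighbours had -0.01, 0.04 and 0.48, in the opposite direction to the gene in replicates b and c.

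**Figure D5:**
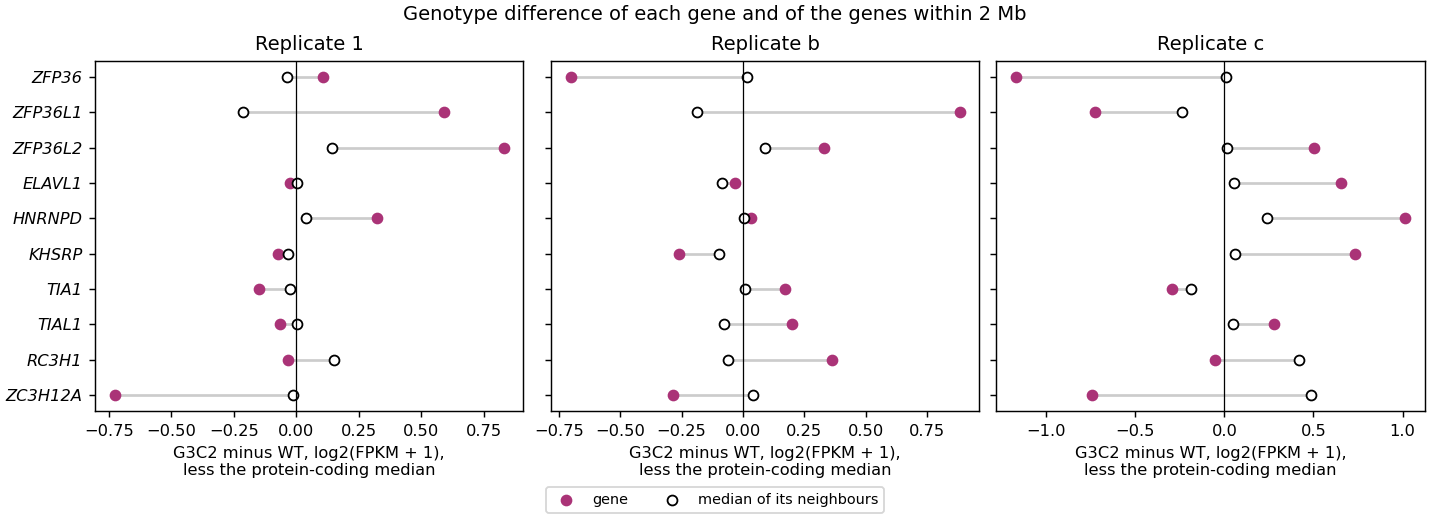
G3C2 minus WT in log2(FPKM + 1), less the median of protein-coding genes, for each gene (filled) and for the median of its neighbours within 2 Mb (open), in replicates 1, b and c. The neighbours of ZFP36L1 lie between -0.24 and -0.19 in all 3 replicates.

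Genes that act on or with these proteins were counted list by list. No member of any of the 4 lists passed the adjusted threshold in the limma fit, and limma-voom on second-table reads called 0 of 14988 genes. Of 17 kinases, phosphatases and 14-3-3 proteins that act on the ZFP36 family, 2 were higher and 0 lower at an unadjusted p under 0.05, beside 6.19% higher and 7.43% lower of all tested genes, with a median of 0.06. Their medians in replicates 1, b and c were 0.03, -0.03 and 0.41, beside -0.08, -0.01 and 0.07 over all tested genes. AKT1, which phosphorylates ZFP36L1 and so favours its binding by 14-3-3 proteins, had 0.94 (SE 0.18, limma adjusted p = 0.150), and YWHAB, a 14-3-3 protein, had 0.53 (SE 0.17). SFN, another 14-3-3 protein, had -0.42 (SE 0.26), and DUSP1, a phosphatase that switches off p38, had -0.43 (SE 0.32).

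Of 25 tested further AU-rich or related RNA-binding proteins (29 listed), 2 were higher and 0 lower at an unadjusted p under 0.05, beside 6.19% and 7.43% of all tested genes, with a median of 0.09. Their medians in replicates 1, b and c were -0.08, -0.08 and 0.47. The 2 higher genes were ELAVL2, the HuB paralog of ELAVL1, at 0.91 (SE 0.17, limma adjusted p = 0.140), and RC3H2, the paralog of RC3H1, at 0.37 (SE 0.15). ELAVL2 had 13.1 FPKM in WT and 22.5 in G3C2 for replicate 1, with 5.03 (WT b), 3.40 (WT c), 9.03 (G3C2 b) and 9.54 (G3C2 c) in the second table. ELAVL2 was higher in all 3 pairs, and its values did not overlap between genotypes in the second table. Both G3C2 values were above both WT values there for 22.1% of all tested genes. ZC3H12B had -0.30 (SE 0.17) and CELF1 -0.22 (SE 0.17).

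Of 25 partners in deadenylation, decapping and decay, 3 were higher and 1 lower at an unadjusted p under 0.05, beside 6.19% and 7.43% of all tested genes, with a median of 0.06. Their medians in replicates 1, b and c were -0.02, -0.02 and 0.30. CNOT8, a deadenylase of the CCR4-NOT complex, had 0.41 (SE 0.14) and the decapping activator DCP1A 0.36 (SE 0.13). CNOT6, another deadenylase of that complex, had -0.55 (SE 0.14, limma adjusted p = 0.211), and PARN -0.22 (SE 0.18).

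Of 21 tested mRNAs widely reported as bound through AU-rich elements (25 listed), 2 were higher and 1 lower at an unadjusted p under 0.05, beside 6.19% and 7.43% of all tested genes, with a median of -0.10. Their medians in replicates 1, b and c were 0.08, -0.24 and -0.09. PLAUR, the urokinase receptor, had 1.01 (SE 0.23, limma adjusted p = 0.181) and CCND1, cyclin D1, 0.47 (SE 0.18). PTGS2, which encodes COX-2, had -0.78 (SE 0.21). EGR1, like ZFP36 an immediate-early gene, had -1.91 (SE 0.82) and did not pass the unadjusted threshold. Its differences were 0.08, -1.83 and -3.98 in replicates 1, b and c, where ZFP36 had 0.04, -0.72 and -1.07. DUSP1, the phosphatase named above, had -0.25, -1.16 and 0.13 in the same order, and so was higher in G3C2 in replicate c. A shared pattern of these genes was not tested.

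The spans of some genes, from start to end, overlap that of another annotated gene. TIA1 overlaps C2orf42 (2.16 to 11.6 FPKM), HNRNPD overlaps the antisense gene AC124016.1 (at most 0.632 FPKM), and RC3H1 overlaps RC3H1-IT1, listed at 0 in 5 of 6 libraries. C2orf42 and RC3H1-IT1 (annotated as sense intronic) lie on the same strand as the genes they overlap, so strand could not separate reads from any shared bases. For the antisense AC124016.1, no strand setting of the counting is stated. Whether exons overlap was not checked, so it is not known whether any reads could be assigned to either gene.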

How the data were processed

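Gene-level FPKM stood in 2 tables that the authors deposited. Per the submitters' processing notes, CASAVA, HISAT2 and the build GRCh38.p12 were used. Versions and the counting tool are not given in the sources used here. Columns were matched to samples by title. Genes were matched to GENCODE 29 (GRCh38). The 10 members, the companion lists and the tests were chosen with earlier results of these data known.

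Genotypes were compared by limma (version 3.58.1, R 4.3.3) across all 6 libraries on log2(FPKM + 1), with terms for genotype and table and a mean-variance trend. Genes needed at least 1 FPKM in at least 2 libraries. The fit was tested on simulated data. Each library's second-table FPKM times exon length was divided by its smallest step. Between 97.3% and 97.4% of values came out whole within 0.02 reads, against 33.5% and 34.7% in the first table. Those reads, rounded, were summed by library and used for a limma-voom alternative. The step gave the depth that scaled FPKM.

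Same-labelled libraries deviated together (r = 0.93, 0.80 and 0.60 across genes for replicates 1, b and c), a pattern that separate tables alone produce. Within the second table r was -0.17. All 10 members were named, and in each companion list the genes past the threshold or, with none, the 2 with the smallest p in each direction. No protein sequences were used here, and amino acid identities are not given. Python 3.11.15, pandas 2.3.3, scipy 1.17.1 and matplotlib 3.10.9 served the rest.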

Additional observations from a re-analysis of the deposited data

How the results depend on the processing

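Against 3 genes called higher and 4 lower, equal medians gave 5 higher, and a minimum mean of 5 FPKM gave 1 lower. The replicate block gave 0 higher and 1 lower. Both counts were 0 when the second table was used by itself (also with the replicate block) and by limma-voom on recovered reads. They were also 0 when only genes at 0 FPKM in every library were left out (33895 tested). In these settings unadjusted p under 0.05 held for 2990 genes (only genes at 0 left out), 1110 (second table), 853 (second table and block) and 1212 (limma-voom). It held for 1782 with the block over both tables. The leave-outs ranged from 0 to 448 higher and from 0 to 457 lower, and the highest counts came when replicate c was dropped.

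Of the 10 genes, ZFP36L1 alone passed the adjusted threshold in any setting, without replicate c (0.70, limma adjusted p = 0.0237). That setting called 448 genes higher and 457 lower. Over the leave-outs its difference lay between -0.050 and 0.70, and it was -0.071 with limma-voom, where the median of all genes was -0.11. Leave-outs also changed the sign of ELAVL1 (-0.070 to 0.36), KHSRP (-0.21 to 0.35), TIAL1 (-0.044 to 0.28) and RC3H1 (-0.026 to 0.20). KHSRP was -0.080 with quantile normalization. The cause was not tested, beyond the fewer libraries in the leave-outs. ZFP36, ZFP36L2, HNRNPD, TIA1 and ZC3H12A kept their sign in all 18 alternatives. ZFP36 lay between -1.18 (by limma-voom, on the scale of reads) and -0.34, and HNRNPD between 0.14 and 0.69. The replicate block changed no call of the 10 by adjusted p, and ZFP36 then had an unadjusted limma p of 0.0610. Once a replicate 1 library is dropped, its partner no longer informs the genotype estimate. Read counts were lowest for ZFP36 and ZC3H12A.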
